A study of Drosophila melanogaster with 42 samples.

Results

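A total of 166 of the 16637 transcripts measured rose during the third larval instar of Drosophila melanogaster both in the ring gland and in the whole larva. The ring gland is a small endocrine organ whose prothoracic gland cells make ecdysone, the steroid hormone that times moulting and metamorphosis. A transcript was included where its mean log2 intensity over 3 arrays was higher at 36 h than at 4 h of the instar by at least 1.2 in w1118 ring glands and by at least 1.2 in whole w1118 larvae, and where its highest mean over the 8 wild-type groups was at least 7. For comparison, 397 transcripts passed the change threshold in the gland and the level threshold but not the change threshold in the larva, and 1173 passed in the larva but not in the gland. Because the members were chosen by the 4 h and 36 h arrays, every value from those times is given as a description with no test. The tests use the wild-type arrays of 8 h and 24 h and the driver crosses. These wild-type arrays entered the rule through the level threshold, and the driver crosses did not enter it. The step from 8 to 24 h lies inside the span whose rise chose the members. Rises over that step therefore follow in part from the choice.

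The wild-type series held w1118 ring glands and whole w1118 larvae at 4, 8, 24 and 36 h of the third instar. The driver series held ring glands of phantom-Gal4/RasV12 larvae, phantom-Gal4/Torso-RNAi larvae and the control cross phantom-Gal4/w1118, taken 8 and 18 h before puparium formation. All 3 driver genotypes therefore carry phantom-Gal4, which acts in the steroid-producing cells, and the dissected organ also holds cells outside them. RasV12 is a constitutively active Ras, and its larvae are labelled as accelerated in development. Torso-RNAi is a transgene against the receptor torso, and its larvae are labelled as delayed. Each of the 14 groups had 3 arrays, called biological replicates in the labels, which do not say how many animals were pooled. For the 9 arrays of the 8 h driver groups the titles give 18 h while the source names and descriptions give 8 h. The titles of the driver arrays also name the gut colour, partly clear in the 8 h groups and blue in the 18 h groups, which parts the times as the descriptions do. The descriptions were followed, so each result at 8 h before puparium rests on that choice.

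In the fly, the brain peptide PTTH reaches the prothoracic gland and acts through the receptor Torso and the Ras pathway to raise ecdysone output late in larval life. Ecdysone released by the gland is converted in other tissues to its active form, which switches on cascades of target genes in many organs, the gland among them. A whole larva is dominated by tissues such as fat body, gut, muscle and epidermis. The levels measured in bulk RNA do not separate more cells of a type from more RNA per cell.

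The deposited rows carry FlyBase transcript identifiers alone. None of the 166 members (0) was found in the gene table used here, so the members are given by identifier, without gene names or roles, and neither the tissues nor the torso level could be checked on marker genes. Transcripts of 1 gene can share probes. A total of 51 members had an identifier number adjacent to that of another member, and with gaps of at most 20 the 166 members formed 113 runs, 28 of them with 2 or more members. The members are therefore fewer independent units than their number. Of the wild-type arrays, replicate 1 of the 24 h larvae and replicate 1 of the 36 h larvae deviated most from their groups, and on replicate 1 of the 36 h glands transcripts lay highest against its group. Of the 166 members, 136 still passed both change thresholds without these 3 arrays. Of the tested groups only the 24 h larvae hold one of them, so the counts that use those larvae are also given without the 3.

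From 4 to 36 h the members differed by a median log2 change of 2.12 in the gland (1.21 to 8.61) and of 2.22 in the larva (1.21 to 8.41). At least 4-fold differences were seen in 92 members in the gland and in 93 in the larva, and at least 16-fold differences in 28 and 38 members. In 17 members the difference was at least 16-fold in both tissues. The 4 h mean was under a log2 intensity of 5 in 27 members in the gland, in 16 in the larva and in 9 in both. Sizes measured against such dim values depend on the background, here and in the comparisons that follow, and the files hold no detection call. Just inside the gland threshold lay members with changes of 1.208 and 1.21, and just outside it transcripts with 1.194 and 1.193. For the larva these values were 1.209 and 1.234 inside and 1.195 and 1.154 outside, and for the level threshold 7.275 and 7.46 inside and 6.903 and 6.869 outside.

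The largest rise in the gland was that of FBtr0083461. In ring glands its intensity was 16, 16.6 and 16.1 on the arrays of 4 h and 16.4, 16.8 and 15.8 on those of 8 h. It was 1137, 68.0 and 1427 at 24 h, then 5999.9, 4056 and 10462 at 36 h. In whole larvae it was 429, 194 and 31.5 on the arrays of 4 h and 46.4, 231 and 303 on those of 8 h, then 6034, 5805 and 10844 at 24 h, with 35970.1, 29382 and 29968 at 36 h. The early gland arrays lay near the lowest intensity of any transcript, which was 8.23 to 9.52 on the wild-type arrays, and replicate 2 of the 24 h glands lay far below the other two. The 36 h arrays of each tissue lay far above its 4 h arrays, by 8.61 in log2 in the gland and 7.84 in the larva. FBtr0077578 followed with a gland change of 7.6. In the larva FBtr0077393 and FBtr0083441 had the largest changes, 8.41 and 8.31.

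**Figure D1:**
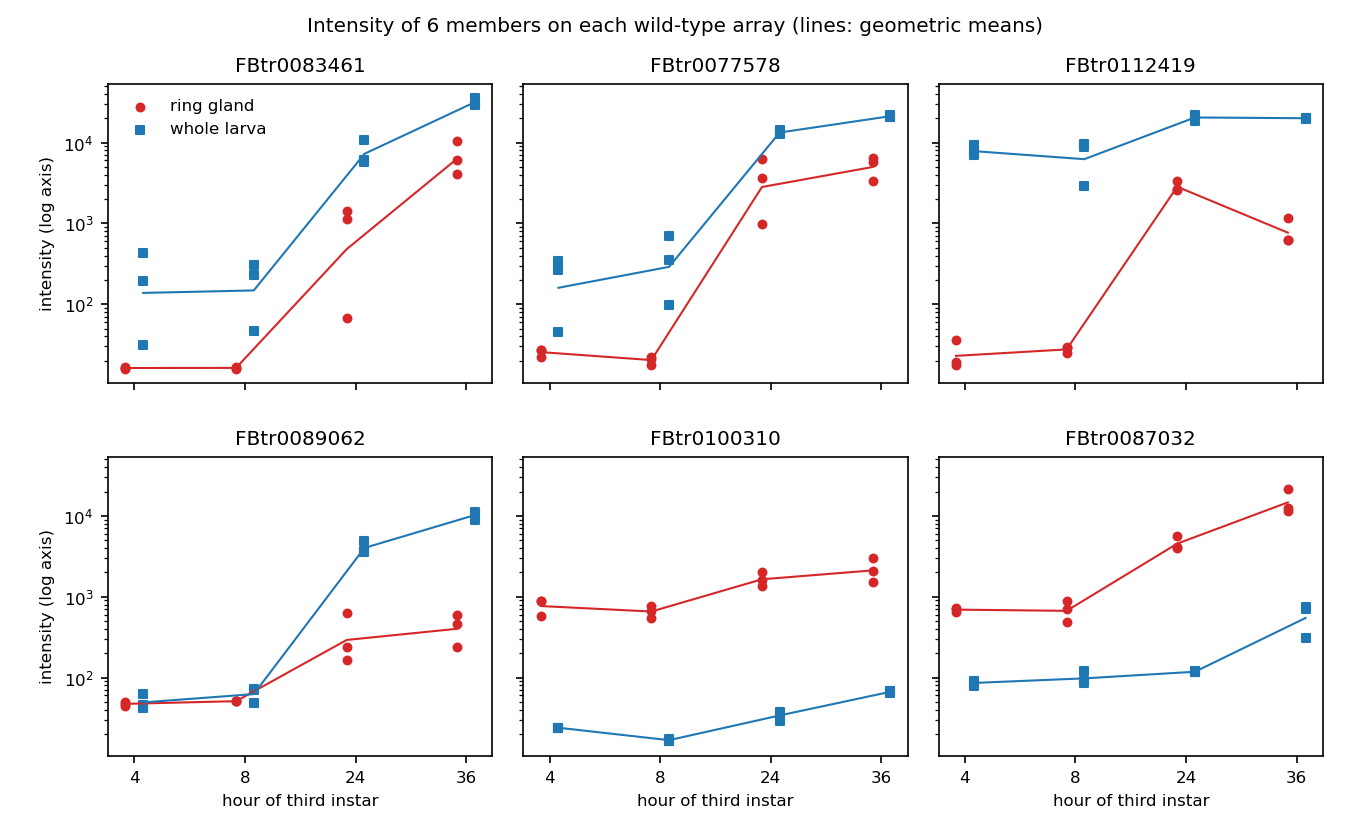
Intensity of 6 members on each wild-type array, on a log axis, at 4, 8, 24 and 36 h of the third instar, in ring gland (red circles) and whole larva (blue squares), with lines through the geometric means. FBtr0083461, FBtr0077578 and FBtr0112419 stay low in the gland until 8 h and are higher at 24 h, FBtr0089062 is far higher in the larva than in the gland from 24 h, and FBtr0100310 and FBtr0087032 are higher in the gland at all 4 times.

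The members did not share one time course. In the gland the largest of the 3 steps between sampled times fell between 24 and 36 h in 79 members, between 8 and 24 h in 69 and between 4 and 8 h in 18. In the larva it fell between 8 and 24 h in 128 members, between 24 and 36 h in 33 and between 4 and 8 h in 5. Both tissues had their largest step in the same interval in 88 members. In 54 members the gland's largest step came between 24 and 36 h and the larva's between 8 and 24 h. By 24 h the members had covered a median of 56.11% of their gland change and 75.45% of their larval change. The steps span unequal times, and these shares include the arrays that chose the members. The means rose at all 3 steps in 84 members in the gland, in 106 in the larva and in 60 in both. In 22 members of each tissue the 24 h mean was at or above the 36 h mean.

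**Figure D2:**
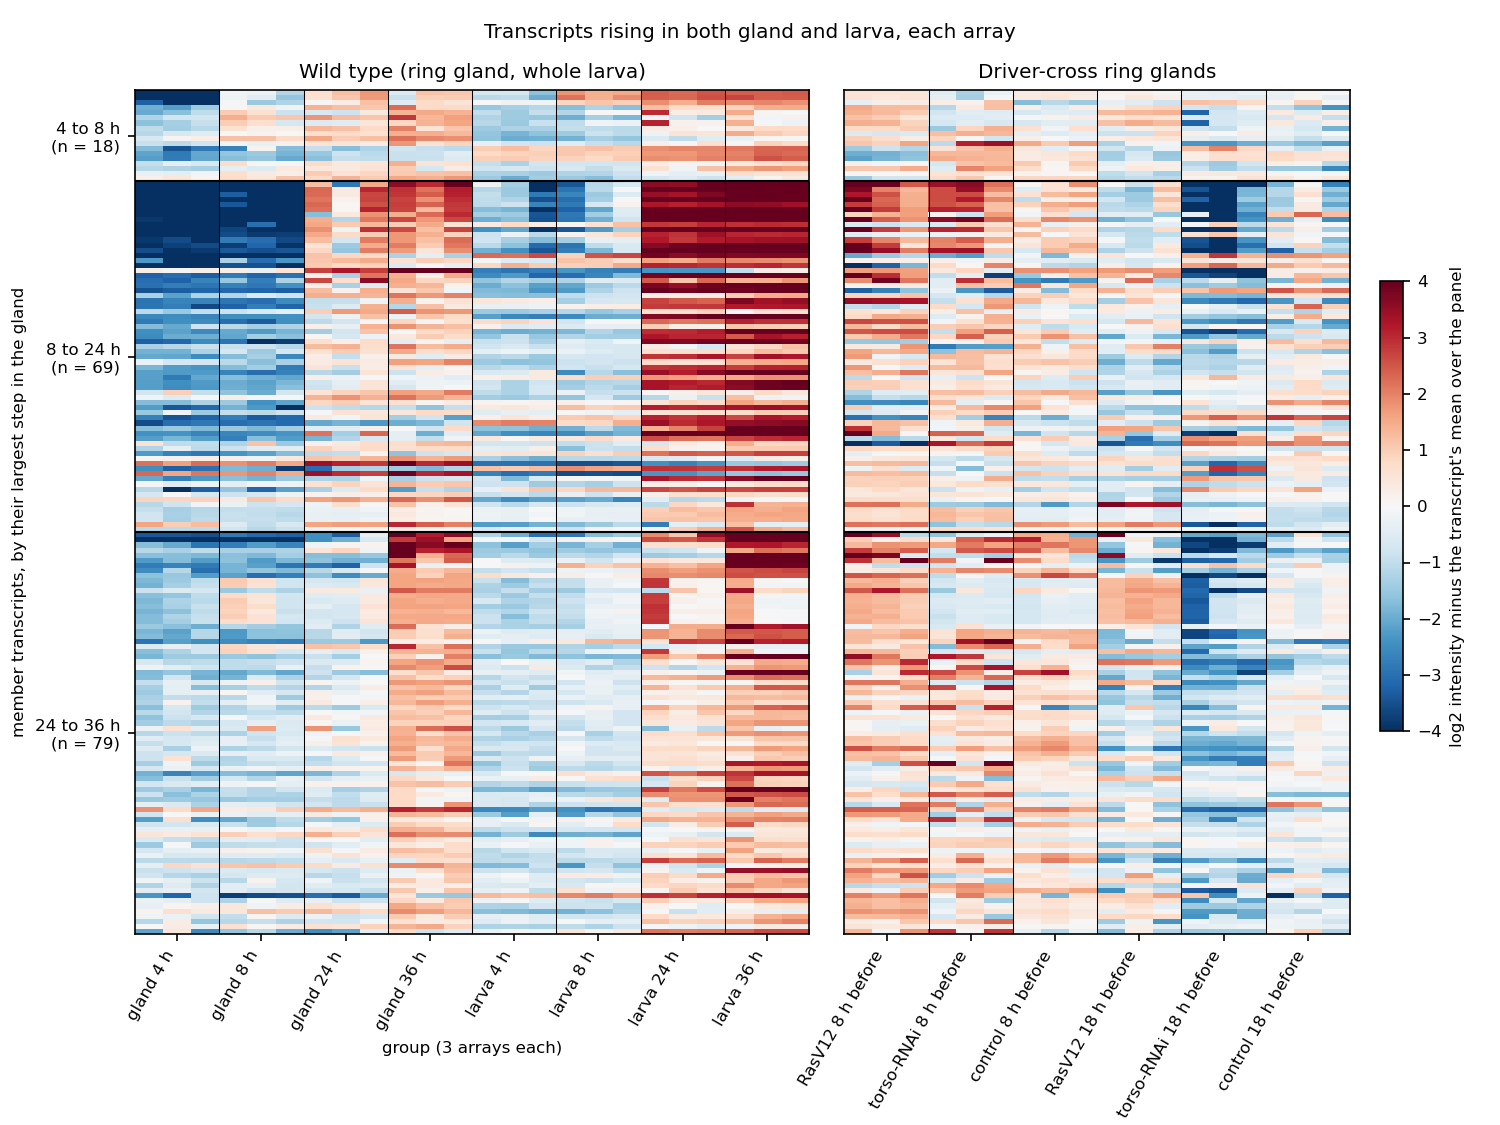
Log2 intensity of the 166 members on each array (columns, 3 for each group) minus the member's mean over the panel, with wild-type arrays on the left and driver-cross ring glands on the right. Rows are ordered by the interval of the largest gland step (18, 69 and 79 members) and then by the size of the gland change. Each row is higher in the last wild-type group of each tissue than in the earliest, since that difference chose the rows. The wild-type colours are set against the mean of both tissues, so a member far lower in the gland can be blue there at 36 h. The driver panel shows rows that are blue in the torso-RNAi glands 18 h before puparium.

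Between 8 and 24 h, on arrays that the change thresholds did not use, 84 members rose in the gland and 0 fell at an adjusted p under 0.05 by limma with Benjamini-Hochberg adjustment over all transcripts. Of all 16637 transcripts, 5.08% rose and 5.58% fell. The median log2 change of the members was 0.79, against 0.01 over all transcripts. In the larva 117 members rose and 0 fell, where 10.1% of all transcripts rose and 10.6% fell. The member median was 1.38 against 0 over all. The change thresholds did not use these arrays, but the interval is part of the span whose rise chose the members. The excess of rises over falls in both tissues therefore follows in part from that choice. How large that part is was not tested. Leaving out each array of the compared groups in turn gave 73 to 83 rises in the gland and 110 to 118 in the larva, and 0 falls. Without the 3 arrays that stood apart 124 rose in the larva. The 72 members that rose in both tissues made up 85.7% of the 84, where 70.5% of all 166 members rose in the larva. They made up 61.5% of the 117, where 50.6% of all members rose in the gland. This overlap was not counted over all transcripts. Among the 397 transcripts selected in the gland alone, 177 rose in the gland and 58 in the larva. Among the 1173 selected in the larva alone, 18 rose in the gland and 319 in the larva. Each of these sets was likewise chosen by a rise over that span in its own tissue. Across the 166 members the changes in gland and larva had a Pearson r of 0.65 and a Spearman rho of 0.44, where all 16637 transcripts had 0.4 and 0.23, given as a description, since members share arrays and probes.

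In the gland the largest measured rise between these times was that of FBtr0077578. Its intensity was 3649, 985 and 6215 in 24 h glands and 22.4, 17.9 and 21.0 in 8 h glands. The 8 h values lay close to the lowest intensity of the wild-type arrays. The groups did not overlap, and the log2 change was 7.11 ± 0.70 (SE, n = 3 each, adjusted p = 1.4e-06). Without replicate 2 of the 24 h glands it was 7.87. FBtr0112419 had 3330.5, 2685 and 2557 in 24 h glands and 29.5, 24.8 and 28.6 in 8 h glands, a change of 6.68 ± 0.35 (adjusted p = 2.4e-10). Unlike FBtr0083461, it was lower at 36 h, at 625, 1167 and 620.1.

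In the larva FBtr0073750 had the largest measured rise. It had 2596, 1927 and 2568 in 24 h larvae and 14.9, 19.6 and 23.4 in 8 h larvae, a log2 change of 6.95 ± 0.64 (SE, n = 3 each, adjusted p = 3.3e-07), also from 8 h values close to the lowest intensity. In the gland the same transcript had 388, 33.7 and 425 at 24 h and 14.3, 15.6 and 16.8 at 8 h, and at 36 h it had 68.0, 22.4 and 64.3. Its gland level was thus higher in the 24 h arrays 1 and 3 than in any 36 h array. FBtr0112474 had 5946, 5977 and 6112 in 24 h larvae and 27.8, 60.8 and 116 in 8 h larvae, a change of 6.69 ± 0.62 (adjusted p = 4e-07).

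The change from 8 to 24 h differed between gland and larva in 42 members. It was more positive in the gland in 11, where 5.07% of all transcripts were, and more positive in the larva in 31, where 4.57% of all were. The median difference over the members was -0.56. Without the 3 arrays that stood apart the counts were 12 and 38. The largest difference toward the gland was that of FBtr0112419. In the larva it had 21853, 18656 and 20844 at 24 h and 2883, 8690.1 and 9618 at 8 h, so its larval level was already high when its gland level was low, and the gland change exceeded the larval one by 4.97 ± 0.49 in log2 (adjusted p = 4.3e-06). FBtr0112420, which has the next identifier number, followed with a difference of 2.97 ± 0.49 (adjusted p = 0.00078).

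The largest difference toward the larva was that of FBtr0076004. Its gland intensity was 86.7, 49.5 and 54.4 at 24 h and 67.9, 57.0 and 77 at 8 h, with overlapping groups. In the larva it had 867, 556 and 783 at 24 h and 37.2, 44.7 and 45.5 at 8 h. The gland change minus the larval change was -4.21 ± 0.36 (adjusted p = 7.8e-07). For FBtr0089062 it was -3.49 ± 0.51 (adjusted p = 0.00026), with 3539.6, 3706 and 4908 in 24 h larvae against 166, 239 and 623 in 24 h glands.

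**Figure D3:**
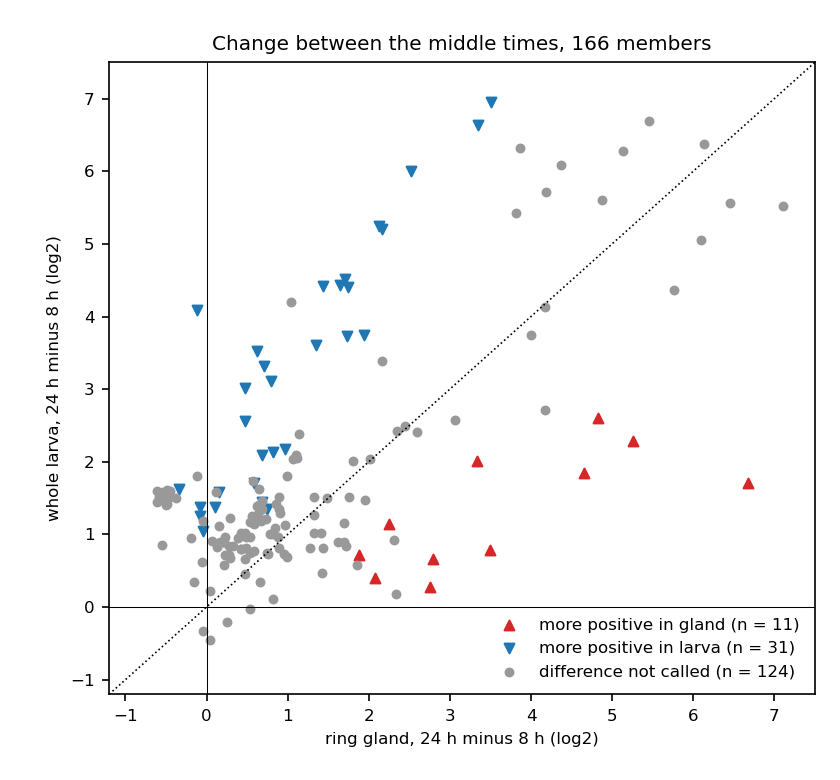
Log2 change from 8 to 24 h of each of the 166 members in the ring gland (x axis) and the whole larva (y axis), with the dotted line marking equal changes. Red triangles mark the 11 members whose change was more positive in the gland, blue triangles the 31 more positive in the larva, and grey points the 124 whose difference was not called. The tight group of grey points left of 0 includes the run of 11 transcripts with close identifiers.

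Most members were less abundant in the gland RNA than in the larval RNA, by the sign of the difference 122 of 166 at 24 h and 99 at 8 h. The level threshold took the highest of the 8 wild-type means, so a member could pass it on the level in 1 tissue alone. No such threshold applied to all transcripts. How far this choice moved the balance was not tested. At 24 h 96 members were lower in the gland and 25 higher, where 23.2% of all transcripts were lower and 46.1% higher. At 8 h 74 were lower and 30 higher, against 21.4% and 43.3% of all. The median log2 difference of the members was -1.32 at 24 h and -0.54 at 8 h, while that of all transcripts was 0.27 and 0.22. With arrays centred on their medians 113 members were lower and 21 higher at 24 h, and 85 were lower and 25 higher at 8 h. Centring gave 5151 lower and 5360 higher over all transcripts at 24 h, and 4957 lower and 5296 higher at 8 h. Without the 3 arrays that stood apart 95 were lower and 27 higher at 24 h. A total of 67 members were lower in the gland at both times and 21 were higher at both. By group means, 83 members were lower and 30 were higher in the gland at all 4 times. These joint counts were not made over all transcripts, for which only the shares at each time are given above. The 1173 transcripts selected in the larva alone had 887 lower and 101 higher at 24 h, whereas the 397 selected in the gland alone had 72 lower and 240 higher.

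FBtr0100310 and FBtr0100309, with adjacent identifiers and nearly parallel values, were the members highest in the gland relative to the larva. FBtr0100310 had 2017, 1624 and 1349 in 24 h glands and 35.3, 29.3 and 37.9 in 24 h larvae, a log2 difference of 5.59 ± 0.21 (SE, n = 3 each, adjusted p = 8.6e-14). For FBtr0100309 the difference was 5.35 ± 0.21. At 8 h they differed by 5.29 ± 0.21 and 5.30 ± 0.21. At the other end, FBtr0084338 had 73.7, 60.1 and 149 in 24 h glands and 4614, 3972 and 5059 in 24 h larvae, a difference of -5.70 ± 0.49 (adjusted p = 9.2e-09). FBtr0081003 differed by -5.27 ± 0.24 at 24 h. At 8 h the lowest in the gland was FBtr0112419, at -7.82 ± 0.35.

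The 17 members that were at least 16-fold higher at 36 h in both tissues formed a steep set. Of these, 16 were lower in the gland than in the larva at all 4 times by group means. Between 8 and 24 h, 15 rose in the gland and 16 in the larva, with median log2 changes of 4.37 and 5.52. Over all transcripts 5.08% and 10.1% rose. This interval is part of the span whose large rise chose the 17, so their rises here follow in part from that choice. On the 24 h gland arrays their median log2 intensity was 10.03, 8.02 and 10.83, and all 17 lay above their group mean on replicate 3 while 15 of 17 lay below it on replicate 2. On the 8 h larval arrays the median was 5.96, 7.42 and 8.17, and on the 24 h larval arrays 13.04, 12.71 and 13.25. The members of the set moved together from array to array within several groups, so they do not act as 17 separate observations. The cause was not tested.

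**Figure D4:**
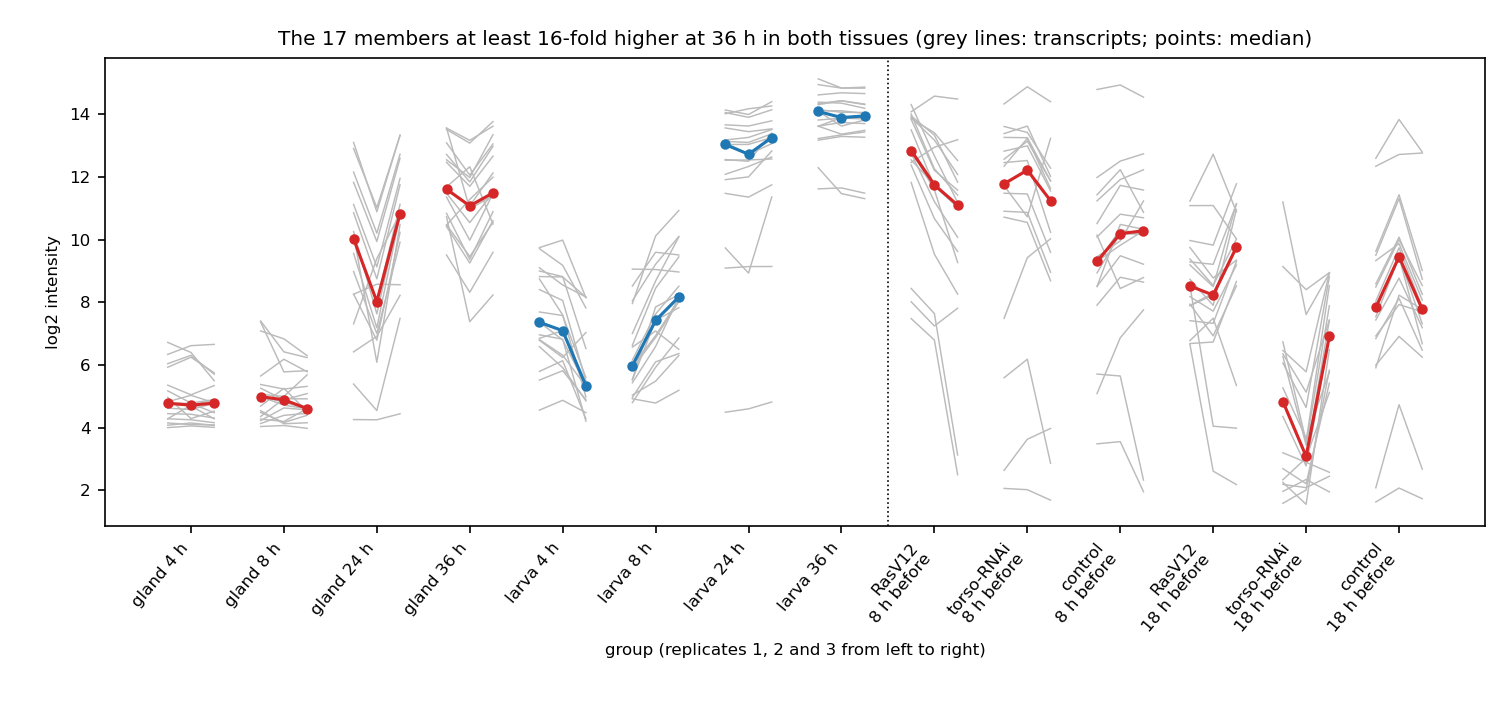
Log2 intensity of the 17 steep members (grey lines) on each array of each group, with replicates 1, 2 and 3 from left to right and the median marked in red for ring glands and blue for whole larvae. The lines shift in parallel between replicates, as in the 24 h glands and in the torso-RNAi glands 18 h before puparium, and the dotted line parts the 2 series, whose levels are not compared.

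A run of 11 members, FBtr0073856 to FBtr0073884, moved almost as one. Their pairwise r was at least 0.977 over the 24 wild-type arrays and at least 0.991 over the 18 driver arrays. In the gland the median intensity of the run was 61, 76 and 103 on the arrays of 4 h and 384, 301 and 124 on those of 8 h. It was 129, 130 and 269 at 24 h, then 558, 578 and 595 at 36 h. In the larva it was 100, 75 and 101 on the arrays of 4 h and 105, 177 and 184 on those of 8 h. Later it was 1438, 223 and 229 at 24 h, then 592, 201 and 194 at 36 h. Replicate 1 of the larvae at 24 h and at 36 h stood far above the other two. Without replicate 1 of the 36 h larvae 10 of the 11 no longer passed the larval threshold, with larval changes of 0.83 to 1.28. Of the 166 members, 151 still passed both change thresholds without that array, and 151 also without replicate 1 of the 36 h glands. The run was picked out after its values were seen. It was called in neither tissue between 8 and 24 h, so the counts for those comparisons are the same without it.

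In the driver crosses the members were on balance lower in torso-RNAi glands than in control glands 18 h before puparium. A total of 74 members were lower and 15 higher, where 22.6% of all transcripts were lower and 18.5% higher, and the median log2 difference was -0.89 against -0.02 over all. Outside the run of 11 transcripts, 63 of 155 were lower and 15 higher. Of the 397 transcripts selected in the gland alone, 163 were lower and 50 higher, with a median of -0.34. As shares, 44.6% of the members and 41.1% of the 397 were lower. Lower calls were thus not particular to the members. Of the 1173 selected in the larva alone, 133 were lower and 121 higher, with a median of -0.01. Among the 79 members with their largest wild-type gland step between 24 and 36 h, 45 were lower and 5 higher in torso-RNAi glands, and among the 69 with the largest step between 8 and 24 h, 27 were lower and 8 higher.

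The largest difference was that of FBtr0087032, which in the wild type was higher in the gland than in the larva. It had 284, 71.3 and 80.6 in torso-RNAi glands and 7735, 7324 and 7753 in control glands 18 h before puparium. The groups lay far apart, at a log2 difference of -6.01 ± 0.41 (SE, n = 3 each, adjusted p = 2e-07), and at -6.65 without replicate 1 of the torso-RNAi glands. FBtr0077393, the member with the largest larval rise, had 9.17, 7.43 and 5.95 in torso-RNAi glands and 122, 244 and 208 in control glands, a difference of -4.63 ± 0.95 (adjusted p = 0.0014). The lowest intensity of the driver arrays was 1.83 to 2.06, so the torso-RNAi values were close to it.

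Higher in torso-RNAi glands at that time was FBtr0081068, with 290.3, 1141 and 864 against 130.3, 215 and 102 in control glands. Its log2 difference was 2.21 ± 0.56 (adjusted p = 0.0057), and 2.81 without replicate 1 of the torso-RNAi glands. FBtr0081587 had a difference of 2.13 ± 0.69 (adjusted p = 0.024). Its adjusted p was 0.078 without control replicate 2, 0.07 without control replicate 3, 0.068 without torso-RNAi replicate 2 and 0.078 without torso-RNAi replicate 3.

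Of all transcripts, 22.6% were lower and 18.5% higher in torso-RNAi glands 18 h before puparium. In the steep set 13 of the 17 were lower and 0 higher, with a median log2 difference of -3.11. Leaving out each array in turn gave 10 to 15 lower. Their median log2 intensity was 4.83, 3.08 and 6.91 on the torso-RNAi arrays and 7.84, 9.46 and 7.77 on the control arrays. At 8 h before puparium 0 of the 17 were called in either direction between torso-RNAi and control glands, with a median difference of 1. At that time 4 were higher and 0 lower in RasV12 glands, where 20% of all transcripts were higher and 22.3% lower. The median of the 17 was 1.84. With 1 array left out 0 to 7 were higher, 0 of them without replicate 1 of either group. From 18 to 8 h before puparium 13% of all transcripts rose in torso-RNAi glands, 16.1% in RasV12 glands and 7.6% in control glands. Of the 17, 14 rose in torso-RNAi, by a median of 6.05, 12 in RasV12, by 2.87, and 2 in control glands, by 1.4. Without 1 array 13 or 14 rose in torso-RNAi glands, 4 to 14 in RasV12 glands and 1 to 3 in control glands. In RasV12 glands the count was 4 to 7 without replicate 1 or 2 of either time.

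At 8 h before puparium the members as a whole showed no such balance toward lower values in torso-RNAi glands. A total of 21 were lower and 35 higher, where 23.6% of all transcripts were lower and 15.5% higher, and the member median was 0.07. FBtr0080145 had 14.3, 147 and 44.7 in torso-RNAi glands and 3.63, 2.68 and 3.94 in control glands, a log2 difference of 3.75 ± 1.06 (adjusted p = 0.012). The control values were close to the lowest intensity of the driver arrays. Without replicate 1 of the torso-RNAi glands it was 4.59, and without replicate 2 it was 2.91 (adjusted p = 0.055). FBtr0075552 had 2294, 1629 and 2213 in torso-RNAi glands and 206, 186 and 281 in control glands, a difference of 3.20 ± 0.22 (adjusted p = 2.8e-07). FBtr0076601 had 7.02, 10.3 and 10.5 against 129.6, 43.1 and 111 in control glands, a difference of -3.23 ± 0.64 (adjusted p = 0.0011). FBtr0085680 differed by -2.82 ± 0.27 (adjusted p = 3.4e-06).

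**Figure D5:**
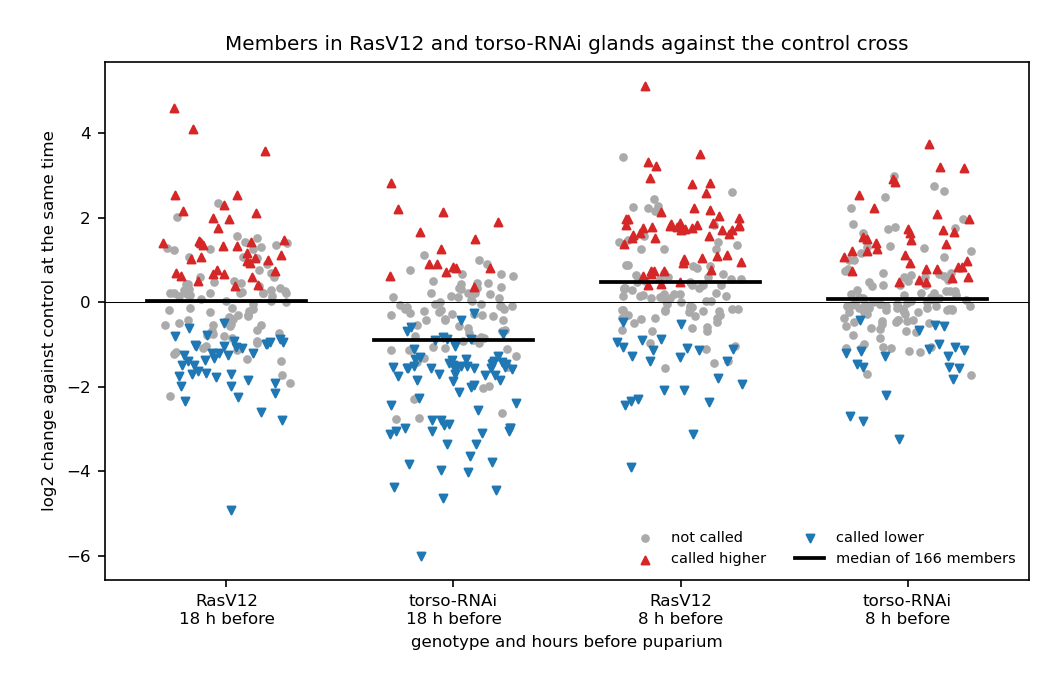
Log2 difference of each of the 166 members in RasV12 and torso-RNAi ring glands against control glands at the same time, 18 and 8 h before puparium, with black bars at the medians (0.03, -0.89, 0.47 and 0.07 from left to right). Red and blue triangles mark members called higher and lower, and both genotypes share the control arrays.

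RasV12 glands were set against the same control arrays. At 18 h before puparium 38 members were higher and 41 lower, where 22.8% of all transcripts were higher and 21.7% lower, and the member median was 0.03. At 8 h before puparium 54 were higher and 24 lower, where 20% of all were higher and 22.3% lower, and the median was 0.47. Among the 397 transcripts selected in the gland alone, 108 were higher and 101 lower at the later time, with a median of 0.05.

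FBtr0087757 was higher in RasV12 glands at both times. At 18 h before puparium it had 242, 164 and 184 in RasV12 glands and 12.2, 11.9 and 10.1 in control glands, a log2 difference of 4.10 ± 0.27 (SE, n = 3 each, adjusted p = 2.1e-07). At the later time it had 78.3, 79.7 and 48.8 against 7.71, 3.58 and 7.69, a difference of 3.50 ± 0.27 (adjusted p = 6.4e-07). In torso-RNAi glands it had 5.29, 4.85 and 5.63 at the earlier time. FBtr0075135 was lower at both times, with 42.0, 65.3 and 82.7 in RasV12 glands and 2062, 1632 and 1916 in control glands 18 h before puparium. Its differences were -4.93 ± 0.35 (adjusted p = 3.5e-07) and, at the later time, -3.89 ± 0.35 (adjusted p = 2e-06).

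FBtr0084338 had 8241, 8085 and 12608 in RasV12 glands and 73.9, 1912 and 425 in control glands 18 h before puparium. The control arrays spread widely, and the log2 difference was 4.59 ± 1.08 (adjusted p = 0.0033), 3.39 without control replicate 1 and 5.73 without control replicate 2. FBtr0081195 was lower at that time by -2.79 ± 0.21. At the later time the largest measured difference was that of FBtr0080145, with 69.8, 278 and 84.6 in RasV12 glands against 3.63, 2.68 and 3.94 in control glands, at 5.13 ± 1.06 (adjusted p = 0.0015), and 4.51 without RasV12 replicate 2. Its size too rests on control values close to the lowest intensity. FBtr0072414 was lower by -3.12 ± 0.38.

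The run of 11 transcripts stood out by its uniform response to RasV12. At 8 h before puparium its median intensity was 1969, 1883 and 1482 in RasV12 glands and 444, 546 and 521 in control glands, and 11 of 11 were higher, by 1.71 to 1.87 in log2, also with each array left out in turn. At the earlier time it was 1724, 2116 and 1887 in RasV12 glands and 924, 504 and 867 in control glands, and 6 of 11 were called higher, by 1.24 to 1.45 over the run. Without an array of either group 0 to 4 of the 11 were called at that time, 0 of them without control replicate 2 or any single RasV12 array. In torso-RNAi glands 18 h before puparium the medians were 77, 424 and 534. All 11 were called lower than control, by a median of -1.53, and by -0.66 without torso-RNAi replicate 1, when 7 were called. Without control replicate 1 or 3, 0 were called. Since the 11 transcripts moved together they are no 11 separate observations. At the later time 20% of all transcripts were higher in RasV12 glands and 22.3% lower. Of the other 155 members, 43 were higher and 24 lower.

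From 18 to 8 h before puparium members rose in every genotype. In torso-RNAi glands 101 were higher and 6 lower at 8 h than at 18 h, where 13% of all transcripts were higher and 13.2% lower, with a member median of 1.33. In RasV12 glands 78 were higher and 13 lower, where 16.1% and 17.2% of all were, with a median of 1.06. In control glands 43 were higher and 11 lower, where 7.6% and 6.25% of all were, with a median of 0.55. These 3 comparisons share no arrays. Of the 397 transcripts selected in the gland alone, 201 were higher and 13 lower in torso-RNAi glands. In RasV12 glands 145 of them were higher and 43 lower, and in control glands 132 and 7. As shares, 50.6%, 36.5% and 33.2% of the 397 were higher, against 60.8%, 47% and 25.9% of the members. The rise was thus not particular to the members, and in control glands their share was the smaller. A total of 31 members were higher at 8 h in all 3 genotypes, of 112 in any. The 41 higher in both torso-RNAi and control glands were 95.3% of the 43, where 60.8% of all members were higher in torso-RNAi glands. They were 40.6% of the 101, where 25.9% of all members were higher in control glands. These overlaps were not counted over all transcripts or over the 397. Of the 79 members with their largest wild-type gland step between 24 and 36 h, 30 were higher and 0 lower in control glands at 8 h, and of the 69 with the step between 8 and 24 h, 10 were higher and 10 lower. Without replicate 1 of the 18 h control glands the control comparison gave 34 calls in place of 54.

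The largest measured rise in torso-RNAi glands was that of FBtr0083461, which also had the largest wild-type gland rise. It had 7266, 8177 and 3014 in torso-RNAi glands at 8 h and 6.46, 4.62 and 42.8 at 18 h before puparium. The first 2 of the 18 h values lay close to the lowest intensity of the driver arrays. The log2 change was 9.02 ± 0.90 (SE, n = 3 each, adjusted p = 1.2e-05), 8.40 without replicate 2 and 10.01 without replicate 3 of the 18 h torso-RNAi glands. In control glands it had 702, 998 and 2413 at 8 h and 186, 698 and 102 at 18 h. FBtr0083460, with the adjacent identifier, changed by 7.90 ± 0.97 in torso-RNAi glands (adjusted p = 6.6e-05), and by 6.88 and 9.05 without the same 2 arrays.

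In control glands FBtr0290260 rose most, with 2169, 934 and 1508 at 8 h and 81.5, 117 and 90.7 at 18 h, which differ by 3.93 ± 0.85 in log2 (SE, n = 3 each, adjusted p = 0.0084). FBtr0081819 had 8324, 8817 and 6299 at 8 h and 669.8, 1036 and 685 at 18 h, a change of 3.31 ± 0.40 (adjusted p = 0.00045). In RasV12 glands FBtr0076495 had 7310.4, 5168 and 5934 at 8 h and 231, 469.7 and 170.0 at 18 h, a change of 4.52 ± 0.36 (adjusted p = 2.5e-06). FBtr0073141 changed by 5.33 ± 1.2 in RasV12 glands (adjusted p = 0.0035). That change was 4.68 without replicate 3 of the 18 h glands, 6.10 without replicate 2 and 4.62 without replicate 3 of the 8 h glands.

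A few members went the other way before puparium, although they had risen over the wild-type instar. FBtr0077023 had 20, 10.6 and 25.4 in control glands at 8 h and 309, 217 and 273 at 18 h, and its log2 level changed by -3.91 ± 0.60 (SE, n = 3 each, adjusted p = 0.0014). In RasV12 glands it changed by -3.15 ± 0.60 (adjusted p = 0.0012). In wild-type glands it had been at 1169, 833 and 1296 at 24 h and at 339.7, 518 and 198 at 36 h. FBtr0080106 changed by -3.55 ± 0.72 in RasV12 glands (adjusted p = 0.0017) and by -3.44 ± 0.72 in torso-RNAi glands (adjusted p = 0.0031), where it was -4.30 without replicate 1 and -2.76 without replicate 3 of the 8 h glands. In control glands it changed by -2.44 ± 0.72 (adjusted p = 0.037), a call that was lost without any 1 of 5 arrays, at adjusted p of 0.06 to 0.16, namely each 18 h control array and replicates 1 and 2 of the 8 h control. FBtr0112419 had 69.9, 59.5 and 137 in torso-RNAi glands at 8 h and 745, 2002 and 734 at 18 h, a change of -3.64 ± 0.50 (adjusted p = 0.00016).

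The change between the 2 times itself differed between genotypes in some members. Between torso-RNAi and control glands it was more positive in torso-RNAi in 22 and less positive in 1, where 1.34% and 1.66% of all transcripts were, and the member median was 0.96. This difference uses the same 18 h torso-RNAi arrays as the lower levels at 18 h and the rise in torso-RNAi glands. These results are therefore not separate. The count of 23 was 13 to 15 without replicate 2 of the 18 h torso-RNAi glands or without any 1 of the 6 control arrays. Between RasV12 and control glands it was more positive in RasV12 in 20 and less positive in 4, where 2.79% and 4.69% of all were, with a median of 0.46. That count of 24 was 15 without replicate 3 of the 8 h control glands. In the 397 transcripts selected in the gland alone, 12 were more positive and 38 less positive in RasV12, and 41 more positive and 5 less positive in torso-RNAi.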

How the data were processed

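Cy3-labelled RNA was read on NimbleGen chips in 1 colour, with 24 arrays of the wild-type and 18 of the driver series. The deposited values are linear intensity values per transcript, and per the submitters' processing notes RMA made them (version not stated). The sources used here do not give the probe annotation or the chip of each array, so chips could not be tested as batches. The series had different lowest intensities and were taken as normalized separately, with no test across them. Values were log2-transformed with no filter or pseudocount, and each series was fitted on group means with limma 3.58.1 in R 4.3.3. Tests were two-sided, adjusted by Benjamini-Hochberg over 16637 transcripts, and called at an adjusted p under 0.05. The members, lists and tests were chosen with earlier results of these data known. Named transcripts are the 2 largest called rises and falls in each comparison whose arrays did not overlap (differences of changes by adjusted p alone), and the 2 largest changes in each tissue. Gene lists could not be used, since no listed gene had a measured row that could be matched by name. The gene table held the identifiers of 44 measured transcripts, of which 0 were members. The fit was tested on simulated data. Array medians were 276.1 to 335.5 and 348.8 to 393.6, replicate arrays correlated with r of 0.9742 to 0.999 across transcripts, and the number of arrays limits the precision. Alternatives covered normalization, filtering, moderation, weights, a replicate block and leaving out arrays.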

Additional observations from a re-analysis of the deposited data

Results flagged for a closer look

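In 11 cases the change of a named member differed between tissues or genotypes by a test of the difference itself. Between gland and larva, the 24 h minus 8 h change differed by 4.97 for FBtr0112419, 2.97 for FBtr0112420, -4.21 for FBtr0076004 and -3.49 for FBtr0089062, in log2.

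Between RasV12 and control glands, the change from 18 to 8 h before puparium differed in 4 named members. FBtr0083971 had 474, 603 and 474 at 8 h and 250.3, 196 and 105 at 18 h in RasV12 glands, while control glands had 134, 198 and 174 at 8 h and 492, 1059 and 293 at 18 h. It was higher at 8 h in RasV12 and lower at 8 h in control, and the difference was 3.25 ± 0.61 (SE, adjusted p = 0.0072). FBtr0075779 had 308, 316 and 310.2 at 8 h and 67.6, 63.8 and 63.9 at 18 h in RasV12 glands, against 80.2, 82.3 and 64.9 at 8 h and 110.2, 211 and 92.6 at 18 h in control glands, a difference of 3.04 ± 0.50 (adjusted p = 0.0035). FBtr0072830 differed by -2.29 ± 0.43 (adjusted p = 0.0072). FBtr0085680 differed by -1.98 ± 0.38 (adjusted p = 0.0079): RasV12 glands already had 7368, 10098 and 8046 at 18 h, where control glands had 1190.4, 1437 and 1793.

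Between torso-RNAi and control glands it differed in 3. FBtr0083461 differed by 6.69 ± 1.27 (adjusted p = 0.013), and by 5.91 to 7.68 with each array left out, the ends being without replicate 2 of the 18 h control glands and without replicate 3 of the 18 h torso-RNAi glands. It was 7.29 without replicate 3 of the 18 h control glands and 6.07 without replicate 2 of the 18 h torso-RNAi glands. FBtr0112474 differed by 5.80 ± 1.46, with an adjusted p that rounds to 0.05 and lay just under it, and lost its call in 10 of the 12 fits without 1 array, the exceptions being replicate 3 of the 18 h (7.15) and of the 8 h torso-RNAi glands (6.44). FBtr0110898 differed by -1.16 ± 0.27 (adjusted p = 0.038) and lost its call in 9 of those 12 fits.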

How the results depend on the processing

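Of the counts recomputed under each alternative, 242 stayed within 1.5 times the reported count and 11 did not, and of the values of named transcripts 792 kept direction and call while 33 lost the call. The number of members was 108 with a change threshold of 1.5 and 242 with 1.0, and 159 to 183 without 1 array. The control comparison of 8 and 18 h gave 84 calls in place of 54 with array weights, whose estimation stopped before its tolerance was reached, and 34 to 45 without 1 array. The difference of changes gave 13 to 25 for torso-RNAi against 23 and 15 to 33 for RasV12 against 24 without 1 array. The cause was not tested, apart from the fewer arrays. Without the 3 wild-type arrays named in the report, picked after seeing the data, 124 members were called between 8 and 24 h in the larva, against 117. Correlations were computed between the deviations of same-numbered arrays in 14 comparisons. The differences of changes repeat the values of other comparisons, so the 14 are not separate checks. In 0 of the 14 did all 3 correlations exceed 0.1, and they ranged from -0.13 to 0.34. The highest were 0.34 and 0.26, for replicates 1 and 3 of the larvae at 8 and 24 h. The check does not exclude that single pairs deviated together. With the replicate number as a block the counts were 84 in the gland, 117 in the larva and 19 for the torso-RNAi difference of changes, and FBtr0112474 lost its call in that difference (adjusted p = 0.08).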
